A study of Mus musculus with 6 samples.

Results

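The glutamate and GABA receptor genes described here are 33 genes chosen by name, matched through their NCBI mouse gene identifiers to the 36528 genes listed for each library. They comprise 4 AMPA, 5 kainate and 7 NMDA receptor subunit genes, 6 metabotropic glutamate receptor genes, 9 GABA-A and 2 GABA-B receptor subunit genes, and the rule that lists them uses no measured value. RNA came from lumbar dorsal root ganglia of female mice aged 12 to 18 weeks. Every mouse carried floxed Scn9a (Scn9a loxP/loxP), the gene of the voltage-gated sodium channel Nav1.7. The control group (n = 3) lacked the Cre transgene (pCAAG.Cre.ER Neg), and the CreER-positive group (n = 3) carried it (pCAAG.Cre.ER Pos). CreER is a Cre recombinase that tamoxifen switches on, and the series title calls the knockout global, so recombination was not limited to neurons by design. No source used here gives the tamoxifen schedule. Each library held 6 ganglia pooled from a single mouse, and replicates are therefore animals.

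Sensory neurons of the dorsal root ganglia use glutamate as their main transmitter. Their central terminals also carry receptors for glutamate and GABA, which tune release in the spinal cord. AMPA, kainate and NMDA receptors are cation channels opened by glutamate, whereas metabotropic glutamate receptors act through G proteins. GABA-A receptors are chloride channels, and in adult sensory neurons, where the importer NKCC1 (Slc12a2) keeps internal chloride high, GABA depolarises the terminal. GABA-B receptors are G protein-coupled dimers that restrain calcium entry and transmitter release.

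Total counts lay between 40237131 and 63332040 per library. All 14 pan-neuronal markers listed were present, with summed levels of 11097 to 14280 CPM (counts scaled to the TMM-adjusted library size). Scn9a had 557 to 635 CPM in the controls and 565 to 620 CPM in the CreER-positive mice (log2 fold change -0.04, 95% interval -0.21 to 0.13). Loss of the floxed exons was not measured: the gene's total was, over a width that for 77.7% of all genes is within 5% of the full span, so that value does not check the labels. In transcripts of other cells 3 libraries stood apart. Control replicate 2 held skeletal muscle transcripts (8 markers, 67.2 CPM in sum against 5.89 to 9.31 in the others). CreER-positive replicate 3 had the lowest pan-neuronal sum (11097 CPM) and the highest sums of satellite glia, fibroblast and macrophage markers (2671, 1655 and 130 CPM). CreER-positive replicate 2 had the highest sums of markers of spinal cord neurons (5.76 CPM, against 3.23 to 4.45) and spinal cord glia (38.3 CPM, against 23.6 to 31.2). Picked after the values were seen, Slc32a1 had 28 counts there (0 to 2 in the others), Slc6a5 44 (1 to 7) and Mobp 744 (26 to 166). Other markers of these lists did not single it out, such as Pax2 (51 counts, 39 to 67 in the others) and Aqp4 (1412, 778 to 1434). The spinal cord glia sum did not overlap between the groups, at 23.6 to 27.0 CPM in controls and 27.2 to 38.3 CPM in CreER-positive mice. Results that change without one of these libraries are given with and without it. The tissue is bulk, so fewer cells of a type and less RNA per cell cannot be told apart.

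One receptor gene fell in CreER-positive ganglia. It was Gabra3, the alpha 3 subunit of the GABA-A receptor, which helps form the GABA binding site and helps set benzodiazepine sensitivity. It had 26.6, 29.2 and 28.8 CPM in control replicates 1 to 3 and 21.4, 18.9 and 20.6 CPM in CreER-positive replicates 1 to 3. Every CreER-positive mouse lay below every control mouse. Means were 28.2 ± 1.40 CPM in controls and 20.3 ± 1.26 CPM in CreER-positive mice (SD, n = 3), a log2 fold change of -0.48 ± 0.07 (SE) with a 95% interval from -0.63 to -0.32. By edgeR's quasi-likelihood test over 22043 genes, with Benjamini-Hochberg adjustment, the adjusted p was 0.0143. An exact two-sided permutation test on the CPM gave p = 0.1, the smallest that 3 mice against 3 allow.

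Of the 33 receptor genes, 31 passed the filter on low counts and 1 was called (adjusted p under 0.05), against 0.726% of all tested genes (160 of 22043). By direction, 0 of the receptor genes were called higher and 1 lower, against 0.177% and 0.549% of all genes (39 and 121). Over all genes that balance turned without CreER-positive replicate 3, to 320 higher and 229 lower. DESeq2 called 3, Gabra3, Gria2 and Grik1, against 2.31% of the genes to which it gave an adjusted p, and limma-voom called Gabra3 alone, against 0.721%. With so few calls, these counts describe single genes and not the group. The call of Gabra3 ended without control replicate 2 (edgeR adjusted p 0.101) or control replicate 3 (0.0797), when control replicate 2 was left out with CreER-positive replicate 3 (0.0777), and when libraries were scaled to pan-neuronal markers (0.0738). The same 4 fits called 0.267%, 0.342%, 0.483% and 0.49% of all genes. The call held in the other fits, which called 0.307%, 0.631%, 0.662% and 2.45% of all genes without control replicate 1 and CreER-positive replicates 1, 2 and 3. With other scalings the share was 0.708% (DESeq2 size factors) and 0.866% (total counts), and with other filters 0.817% (none) and 0.963% (1 CPM in 3 libraries). Over all alternatives the adjusted p of Gabra3 ran from 5.36e-06 by DESeq2 to 0.101, and its log2 fold change stayed between -0.51 and -0.43.

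**Figure D1:**
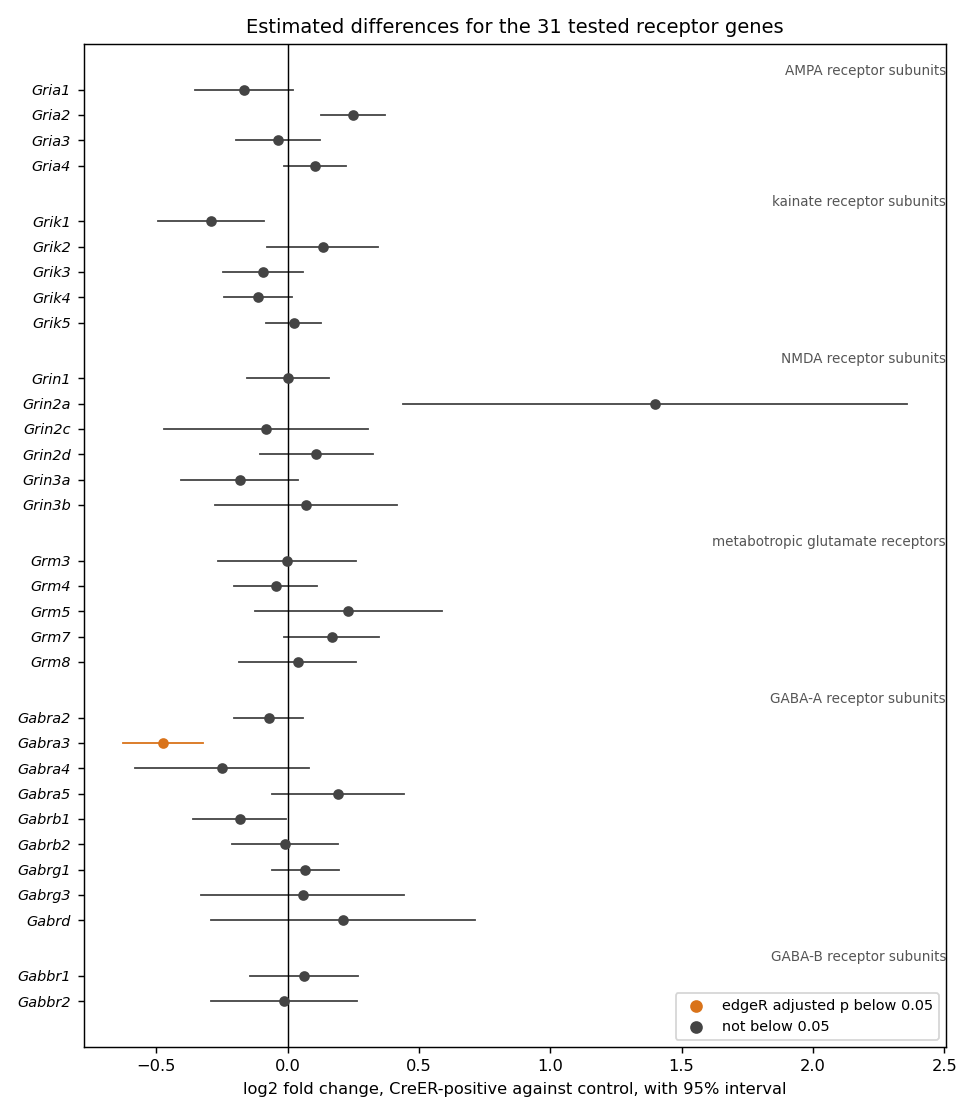
Log2 fold change (CreER-positive against control) with its 95% interval for each of the 31 tested receptor genes, grouped by receptor class. Gabra3 (-0.48, orange) is the one gene called by edgeR over all genes, and Grin2a, on very few counts, has the widest interval (0.44 to 2.36).

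The start regions of Gabra3 and Gria2 are shown because these were the receptor genes with the smallest p in each direction among those with ample counts. They are the 250 bases before a start that RefSeq lists (GRCm38.p6), where 24 of the 33 receptor genes had an entry. Capitals mark CpG dinucleotides, the sites of most DNA methylation in mammals. Gabra3 lies on the minus strand of the X chromosome and the window is chrX:72656920-72657169. Gria2 lies on the minus strand of chromosome 3 and the window is chr3:80802836-80803085. That window lies inside the gene's own RefSeq span, which ends at 80804227, so the start used is not the outermost one.
Gabra3: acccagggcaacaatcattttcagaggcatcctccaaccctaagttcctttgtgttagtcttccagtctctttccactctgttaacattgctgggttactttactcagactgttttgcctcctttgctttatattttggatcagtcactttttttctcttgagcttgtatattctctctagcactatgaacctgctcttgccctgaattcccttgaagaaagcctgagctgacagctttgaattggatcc
Gria2: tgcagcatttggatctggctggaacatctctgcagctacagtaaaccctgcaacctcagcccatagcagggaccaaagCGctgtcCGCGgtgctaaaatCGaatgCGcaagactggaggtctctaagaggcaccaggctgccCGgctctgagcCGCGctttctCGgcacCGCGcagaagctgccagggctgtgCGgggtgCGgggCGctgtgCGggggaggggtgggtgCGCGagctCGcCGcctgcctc
The Gabra3 window holds 0 CpG and has 42.4% G or C, and the other window listed for Gabra3 has 0 as well. In the Gria2 window there are 19 CpG and 64.8% G or C. Of the 32851 windows for all genes, 7.87% hold no CpG, and the median is 6. Among the 24 receptor genes Gabra3 was the one with no CpG in any listed window. No methylation or factor binding was measured, so this is a description of sequence only.

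Gabra3 lies at 72432676 to 72656919 on the X chromosome of GRCm38, and its sole annotated partners in that span, a pair of microRNA genes, had 0 counts. No other GABA-A subunit gene was called by edgeR or DESeq2. Gabra2, whose alpha 2 subunit is common in sensory neurons, had 74.3, 71.3 and 72.7 CPM in the control mice, against 74.0, 69.0 and 64.7 CPM with CreER (log2 fold change -0.07, 95% interval -0.20 to 0.06). The ratio of Gabra2 to Gabra3 CPM within a library, which no scaling can alter, was 2.79, 2.45 and 2.52 in the controls and 3.46, 3.65 and 3.14 in the CreER-positive mice. These ratios did not overlap between groups. They were looked at after the values of Gabra3 were known.

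Gabrb1, the beta 1 subunit, had 12.0, 12.1 and 11.8 CPM in controls, compared with 11.5, 9.99 and 10.2 CPM in CreER-positive mice. The groups did not overlap, but the log2 fold change of -0.18 ± 0.08 (SE) had an unadjusted p of 0.0432 and an edgeR adjusted p of 0.452. Gabra4, the alpha 4 subunit of receptors outside synapses, had 1.72, 1.57 and 1.72 CPM against 1.35, 1.56 and 1.30 CPM (-0.25, 95% interval -0.58 to 0.08). Its groups did not overlap, by the margin between 1.57 and 1.56 CPM. Gabra5, the alpha 5 subunit of tonic inhibition, had 7.21 ± 0.766 and 8.22 ± 0.874 CPM (SD, n = 3), a log2 fold change of 0.19 (95% interval -0.06 to 0.44).

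For Gabrb2, the beta 2 subunit, the means were 28.7 ± 0.565 and 28.6 ± 3.94 CPM (-0.01, interval -0.21 to 0.19). Gabrg1, the gamma 1 subunit, had 34.1 ± 1.87 and 35.7 ± 0.800 CPM (0.07, interval -0.06 to 0.20). Gabrg3, the gamma 3 subunit, lay near 2 CPM in both groups, at 1.89 and 1.98 CPM (0.06, interval -0.33 to 0.44). Gabrd, the delta subunit of receptors outside synapses, had 0.880 and 1.01 CPM (0.21, interval -0.29 to 0.71). Cfap74, which overlaps 45.7% of the span of Gabrd, had 8.46 CPM on average, and with no strand setting known reads of that stretch cannot be assigned to 1 of them.

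A run of 4 of these genes, Gabrg1, Gabra2, Gabra4 and Gabrb1, forms a cluster of 1.4 Mb on chromosome 5 (70751047 to 72149572). Within it, control levels per kilobase of gene width ranged from 0.019 CPM for Gabra4 to 0.540 CPM for Gabra2. The estimated changes were 0.07, -0.07, -0.25 and -0.18 in that order along the chromosome, and none of the 4 was called. On chromosome 7, Gabrg3 and Gabra5 lie within 0.87 Mb and were not called either. Other GABA-A subunit genes were not analysed here.

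**Figure D2:**
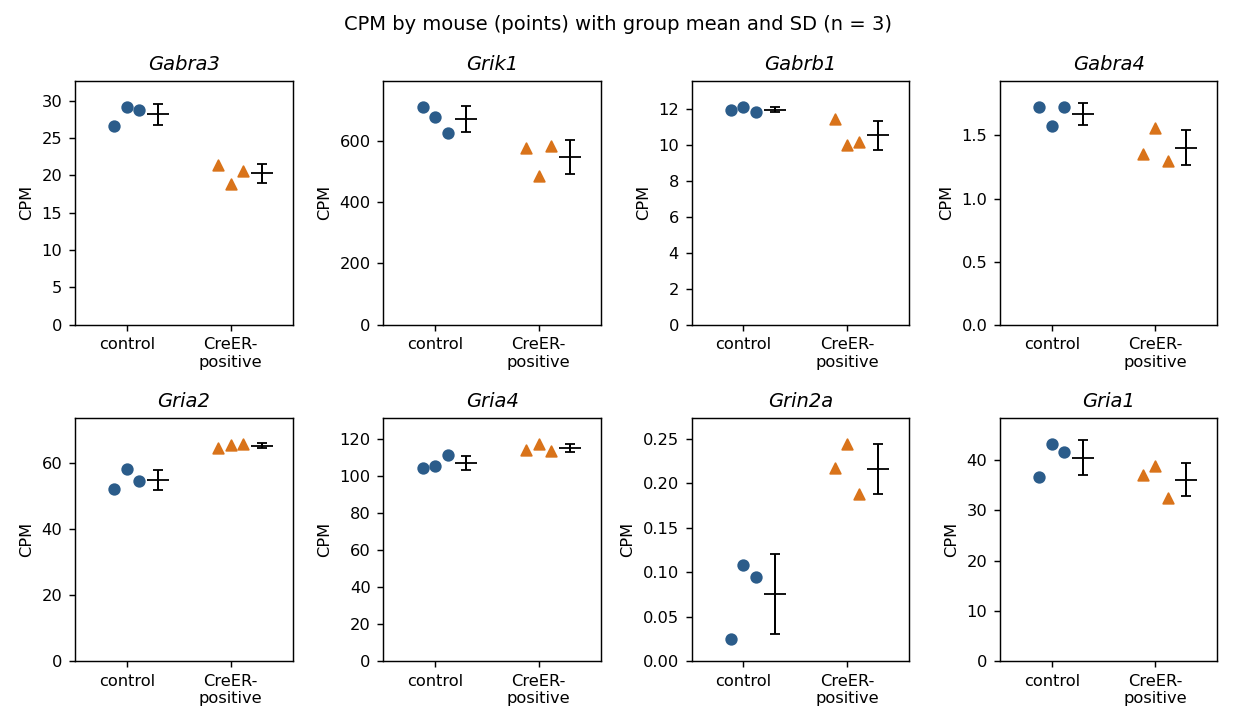
CPM of each mouse with the group mean and SD (n = 3) for the 7 receptor genes whose groups did not overlap, and for Gria1. Gabra3, Grik1, Gabrb1 and Gabra4 were lower in every CreER-positive mouse, and Gria2, Gria4 and Grin2a higher, while Gria1 overlapped between groups.

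The GABA-B receptor genes overlapped between the groups and were not called. Gabbr1, the subunit that binds GABA, had 379, 394 and 393 CPM in the control mice, against 433, 437 and 347 CPM with CreER. Gabbr2, the subunit that couples to the G protein, had 103, 115 and 114 CPM against 119, 124 and 85.4 CPM. Both were highest in CreER-positive replicates 1 and 2 and lowest in CreER-positive replicate 3. That library also had the lowest pan-neuronal sum, and the part of that sum in these values was not tested. The log2 fold changes were 0.06 (95% interval -0.14 to 0.27) and -0.02 (-0.29 to 0.26). Without CreER-positive replicate 3 they were 0.16 and 0.13, and neither was called.

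No AMPA receptor gene was called by edgeR, and Gria2 came closest. Gria2 encodes GluA2, the subunit that makes the channel nearly impermeable to calcium. It had 52.2, 58.2 and 54.7 CPM in controls, compared with 64.5, 65.6 and 65.9 CPM in CreER-positive mice, so that every CreER-positive mouse exceeded every control. The log2 fold change was 0.25 ± 0.05 (SE), with a 95% interval from 0.13 to 0.37. It did not pass by edgeR (unadjusted p 0.00109, adjusted p 0.0898) and passed by DESeq2 (adjusted p 0.0183). Over the alternatives its adjusted p ran from 0.0183 to 0.413 and its log2 fold change from 0.21 to 0.29.

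Gria1, the GluA1 subunit, had 36.6, 43.2 and 41.6 CPM against 37.0, 38.8 and 32.4 CPM, with overlapping groups (-0.17, 95% interval -0.35 to 0.02). The ratio of Gria2 to Gria1 CPM within a library was 1.42, 1.35 and 1.32 in the controls and 1.74, 1.69 and 2.03 in the CreER-positive mice. Each CreER-positive ratio was above each control ratio, and this pair too was chosen after the values were seen. Gria4, the GluA4 subunit, had 104, 105 and 111 CPM against 114, 117 and 113 CPM (0.10, interval -0.01 to 0.22, edgeR adjusted p 0.542). Gria3, the GluA3 subunit, overlapped widely, with 73.7 ± 3.78 and 71.9 ± 6.46 CPM (SD, n = 3).

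Among the kainate receptor genes edgeR called 0, and Grik1 came closest. It encodes GluK1, the kainate receptor subunit that is characteristic of small-diameter sensory neurons. Its CPM was 710, 678 and 625 in the controls and 576, 484 and 584 in the CreER-positive mice. The groups did not overlap, and CreER-positive replicate 2 was the lowest. The log2 fold change of -0.29 ± 0.09 (SE), with a 95% interval from -0.49 to -0.09, had an unadjusted p of 0.00914 and an adjusted p of 0.252 by edgeR, and 0.0302 by DESeq2. Over the alternatives the adjusted p ran from 0.0302 to 0.702, and the log2 fold change from -0.34 to -0.21. The smallest of these changes, -0.21, was that without CreER-positive replicate 2. The summed CPM of the 5 kainate receptor genes, which Grik1 dominates, was 830 to 928 in the controls and 687 to 794 in the CreER-positive mice.

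None of the other kainate receptor genes had a raw p below 0.05. Grik4, which encodes a high-affinity subunit that needs a GluK1 to GluK3 partner, had 96.9, 93.8 and 86.1 CPM against 87.5, 84.1 and 84.0 CPM (-0.11, 95% interval -0.24 to 0.02). Grik5, the other high-affinity subunit, had 64.7 ± 0.434 and 65.7 ± 1.87 CPM (SD, n = 3; 0.02, interval -0.08 to 0.13). Grik2, which encodes GluK2, had 29.3 ± 0.446 and 32.1 ± 4.65 CPM (0.13). Grik3, which encodes GluK3, had 26.9 ± 1.75 and 25.2 ± 1.22 CPM (-0.09).

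**Figure D3:**
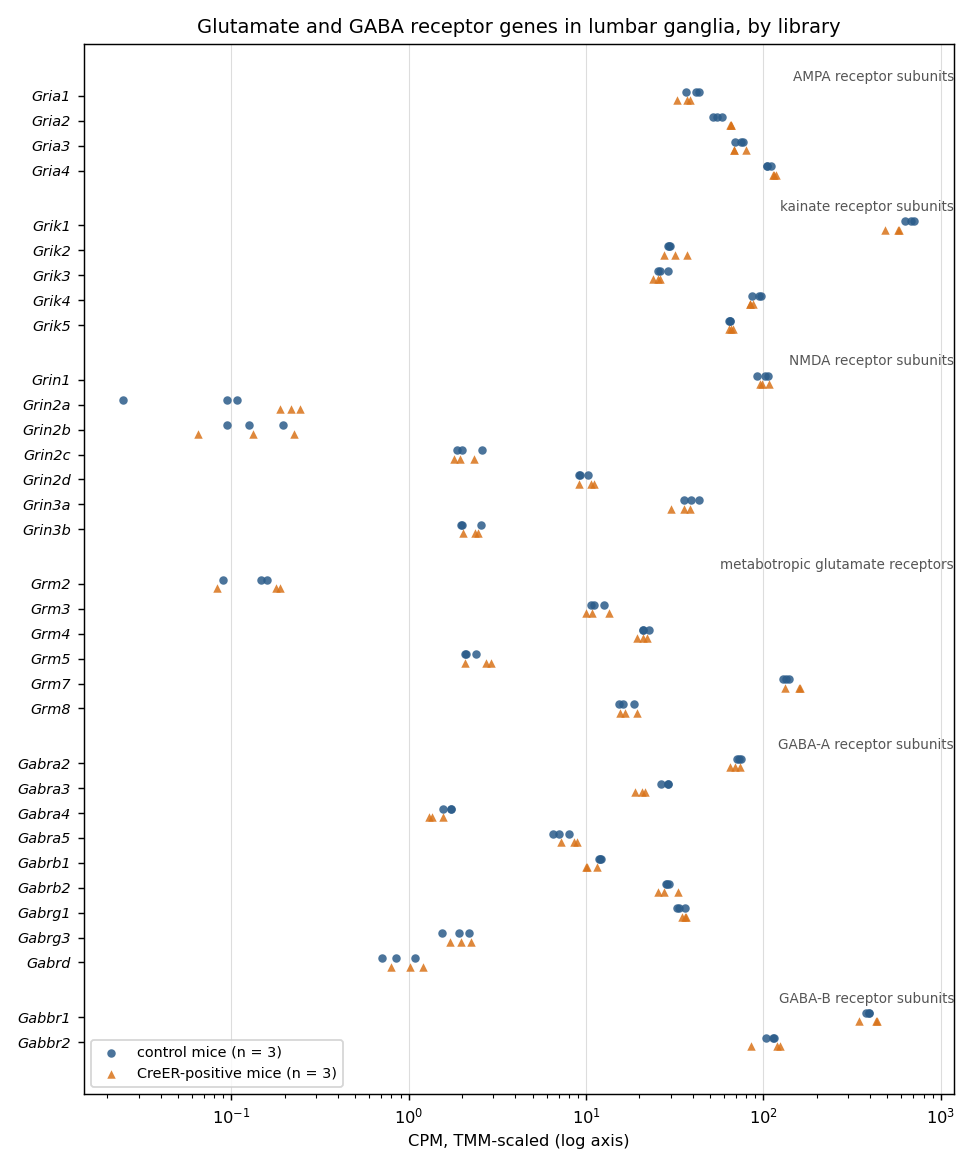
CPM (log axis) of the 33 receptor genes in each of the 6 libraries, grouped by receptor class. Levels span from under 1 CPM for Grin2a, Grin2b and Grm2 to over 400 CPM for Grik1, and the points of control and CreER-positive mice overlap for most genes.

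Among the NMDA receptor genes the obligatory subunit gene Grin1 had the highest level per length, and edgeR called 0. Grin1 had 92.5, 102 and 106 CPM in the control mice, against 98.4, 107 and 95.3 CPM with CreER (0.00, 95% interval -0.16 to 0.16). An antisense gene, Grin1os, covers 26.4% of its span and had 66.0 CPM on average, and reads there cannot be assigned to 1 of them. Grin2d, a glutamate-binding subunit gene, had 9.53 and 10.3 CPM (0.11), and Grin2c, another, had 2.15 and 2.03 CPM (-0.08). Grin3a, a glycine-binding subunit that lowers calcium flow, had 39.5 ± 3.95 and 34.8 ± 4.34 CPM (-0.18, interval -0.41 to 0.04). Grin3b, its relative, had 2.18 and 2.29 CPM (0.07). Tmem259, which overlaps 1.05% of the span of Grin3b, had 72.6 and 77.4 CPM. With no strand setting known, reads of that stretch cannot be assigned to either gene, and their part in the Grin3b level was not tested.

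The subunit genes Grin2a and Grin2b, widespread in the brain, were nearly absent. Grin2a had 1, 6 and 6 counts in the controls and 13, 15 and 10 in the CreER-positive mice, or at most 0.244 CPM. It passed the filter through the CreER-positive libraries alone, so the non-overlap and the estimate of 1.40 ± 0.43 (SE; edgeR adjusted p 0.252) follow in part from that filter and support nothing. Grin2b had 8, 7 and 6 against 8, 4 and 12 counts and was not tested.

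Metabotropic receptor genes gave 0 calls by edgeR, DESeq2 and limma-voom, and 0 of the 5 tested reached an unadjusted p of 0.05. Grm7, a presynaptic receptor with low affinity for glutamate, had 139, 135 and 129 CPM in controls, compared with 160, 132 and 159 CPM in CreER-positive mice. CreER-positive replicates 1 and 3 lay above the controls and replicate 2 within them (0.17, 95% interval -0.01 to 0.35). Grm4 and Grm8, presynaptic receptors of the same group, had 21.4 and 20.8 CPM (-0.05) and 16.7 and 17.2 CPM (0.04). Grm3, which like Grm2 couples to inhibition of cAMP, had 11.5 and 11.4 CPM (0.00, interval -0.26 to 0.26). Grm5, which couples to calcium release, had 2.20 and 2.57 CPM (0.23, interval -0.13 to 0.59). Grm2 had 5 to 11 counts in every library and was not tested.

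The median log2 fold change was 0.00 over the 31 tested receptor genes and 0.00 over all tested genes, with 15 positive and 16 negative estimates. The median size of a change, without sign, was 0.10 for the receptor genes and 0.09 for all genes. The groups did not overlap for 7 of the 31, against 15.9% of all tested genes (3 higher, against 6.63%, and 4 lower, against 9.31%), and 5 had an unadjusted p under 0.05, against 10.5%. As Grin2a is among both counts, and as genes that passed only through 1 group had to differ, these counts support nothing about the group. For 27 of the 31 the 95% interval lay within a fold of 1.5 in either direction, and for 11 within a fold of 1.2. The 4 whose interval reached past a fold of 1.5 were Gabra3, Grin2a, Grm5 and Gabrd.

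Levels can be compared between genes only per length, and the choice of length changed the order. Here the length was first the width in the files, which for 31 of the 33 genes lies within 5% of the whole gene span, introns included. In control ganglia Gabbr1 then led with 13.7 ± 0.287 CPM per kilobase (SD, n = 3), ahead of Grin1 (3.58 ± 0.253), Grik1 (1.70 ± 0.109) and Grik5 (1.03 ± 0.007). These neighbours differed by more than their spread. Gabra2 (0.540), Gria2 (0.457), Gabrg1 (0.372) and Gabbr2 (0.338 ± 0.020) came next, and Gabbr2 did not differ from Grin3b (0.318 ± 0.049) beyond the spread. The Grin3b value may include reads of the overlapping gene Tmem259, so its place in the order is uncertain. In the middle of the order came Gabrb2 (0.135 ± 0.003), Gria1 (0.127 ± 0.011), Gabra3 (0.126 ± 0.006), Grik3 (0.120 ± 0.008) and Grin2c (0.119 ± 0.022). Each of these differed from the next by less than their spread, while Gabrb2 and Grik3 did not overlap.

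Per kilobase of annotated exons (GENCODE M21), Grik1 led with 99.8 ± 6.42 CPM, followed by Gabbr1 (50.1 ± 1.05) and Grm7 (22.8 ± 0.835). Gria4 (16.9 ± 0.582), Gabbr2 (16.6 ± 0.971) and Grik4 (15.5 ± 0.930) followed, of which Gria4 and Gabbr2 were within their spread. Among the AMPA subunit genes Gria2 changed place and the order of the other three did not. Gria2 was first of the 4 per kilobase of width (0.457, against 0.282 for Gria4, 0.265 for Gria3 and 0.127 for Gria1). It was last per kilobase of exon (3.54, against 16.9, 7.47 and 6.70). In contrast, Grik1 led the kainate genes, Grin1 the NMDA genes, Gabra2 the GABA-A genes and Gabbr1 the GABA-B genes under both lengths. Grm4 (0.235) led the metabotropic genes per width and Grm7 (22.8) per exon length. Grin2a and Grin2b were the lowest of all 33 genes either way.

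**Figure D4:**
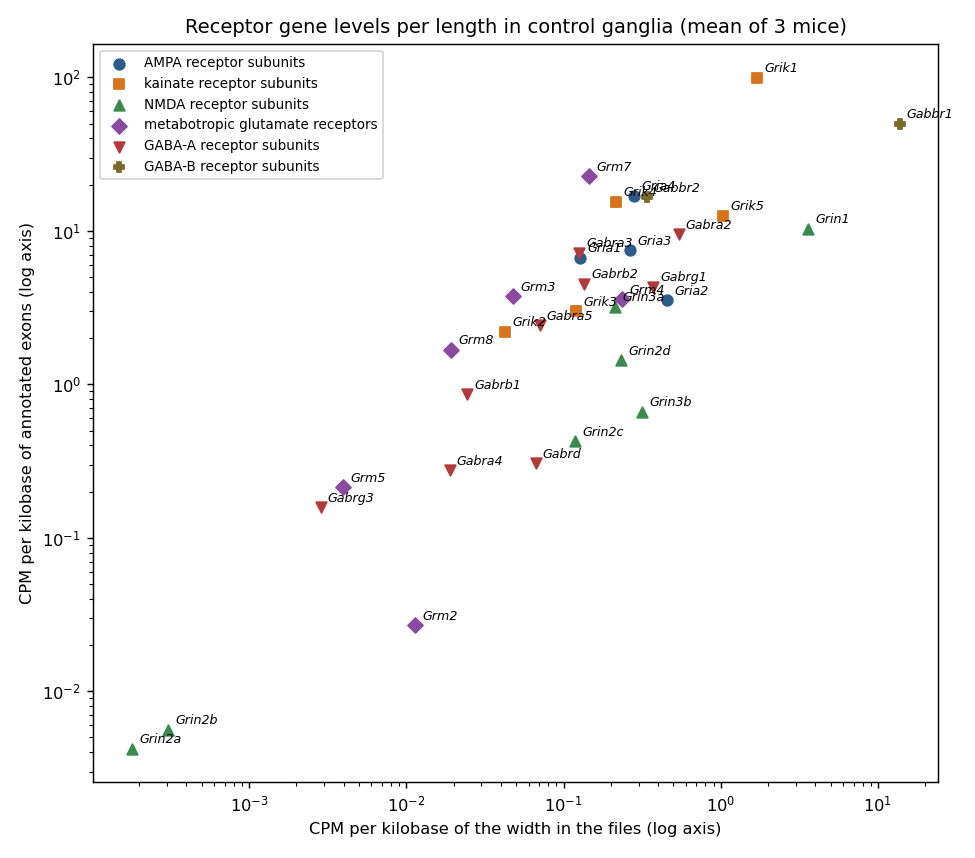
Mean level of each receptor gene in the 3 control mice, as CPM per kilobase of the width in the files (horizontal, log axis) and per kilobase of annotated exons (vertical, log axis). Grik1 and Gabbr1 are high on both axes, Grin2a and Grin2b low on both, and Gria2 lies to the right of the other AMPA genes but below them.

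Markers of neuron types moved between the groups beside these genes. The summed level of 8 non-peptidergic nociceptor markers was 1790 to 1852 CPM in the controls and 1449 to 1600 CPM in the CreER-positive mice. Of the 8, 3 were called lower, against 0.549% of all genes, and 7 had negative estimates. P2rx3 had a positive one (0.08), and Lpar3 (-0.04) and Mrgprb4 (-0.006) barely moved. For 6 markers of C-fibre low-threshold mechanoreceptors the sum was 306 to 313 CPM against 205 to 242 CPM. Of the 6, 4 were called lower, against the same share of all genes. Another of the 6, Cdh9, a cadherin gene, had a positive estimate (0.35, raw p 0.0102, edgeR adjusted p 0.260) and groups that did not overlap. For 7 peptidergic nociceptor markers the sum was 2224 to 2568 CPM against 2668 to 2873 CPM. There edgeR called 0, DESeq2 called 1 (2.31% of all genes) and 4 had an edgeR raw p under 0.05 (10.5% of all genes). Of the 7, 5 had positive estimates and 2 negative ones, Calcb (-0.12) and Gal (-0.03). None of these markers was at 0 in all libraries, and Slc17a8, described next, is one of the C-fibre mechanoreceptor markers. Between the groups, the lists with lower sums changed in the direction of Gabra3 and Grik1, and the peptidergic list in that of Gria2. The spinal cord glia sum was also higher without overlap. By library the order was not always shared. Control replicate 1 had the highest sums of the lower lists, with the lowest Gabra3 (26.6 CPM) and highest Grik1 (710 CPM) of the controls. CreER-positive replicate 3 had the lowest sums of the lower lists and the highest Grik1 of its group (584 CPM). The part of these lists in those results was not tested. The pan-neuronal sum overlapped between the groups, at 11499 to 12957 CPM and 11097 to 14280 CPM.

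Among 56 other genes of glutamate and GABA signalling, in 6 lists, 54 were tested and 2 fell. Over all tested genes 0.549% were called lower, and 0.726% in either direction. Slc17a8, the vesicular glutamate transporter VGLUT3 and a marker of C-fibre mechanoreceptors, had 28.1, 25.5 and 25.3 CPM in the control mice, against 12.4, 10.1 and 7.63 CPM with CreER. Each CreER-positive mouse was below each control (log2 fold change -1.38 ± 0.14 SE, edgeR adjusted p 0.00322), and the call held in all 14 alternatives. The main vesicular transporter genes of sensory neurons were not called. Slc17a6, VGLUT2, had 331 ± 2.02 and 322 ± 22.9 CPM (SD, n = 3; -0.04, 95% interval -0.20 to 0.11). Slc17a7, VGLUT1, had 74.8 ± 9.34 and 86.7 ± 16.4 CPM (0.21, interval -0.09 to 0.51). In the same supply and clearance list of 8 genes the glial transporter gene Slc1a2 (0.35) had the next smallest p, and its edgeR adjusted p was 0.596. Without CreER-positive replicate 2 the estimates of Slc1a2 and Slc17a7 were 0.055 and 0.081.

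The other fall was that of Grip2, a scaffold protein that binds the GluA2 and GluA3 tails. It had 18.7, 19.1 and 17.2 CPM in controls, compared with 13.3, 14.1 and 14.6 CPM in CreER-positive mice (-0.39 ± 0.07 SE, edgeR adjusted p 0.0456). That call ended in 5 of the 6 fits without 1 library (adjusted p 0.0928 to 0.262) and held without CreER-positive replicate 3 (0.0240). It also ended by limma-voom (0.0511), with total counts alone (0.0535), with scaling to pan-neuronal markers (0.232) and with control replicate 2 and CreER-positive replicate 3 left out (0.108). Ccdc174, which overlaps 0.97% of the span of Grip2, had 18.9 CPM on average and a log2 fold change of -0.06. With no strand setting known, reads of that stretch cannot be assigned to either gene. In the 14 scaffold and trafficking genes 1 was called and 4 had a raw p below 0.05, all with negative estimates. The shares of all tested genes were 0.726% and 10.5%, each in either direction. The median log2 fold change of the 14 was -0.03. Shank1, a postsynaptic scaffold gene, had -0.22 (edgeR adjusted p 0.324), and the PSD-95 gene Dlg4 had 0.11.

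Of 13 auxiliary subunit genes of AMPA and kainate receptors edgeR called 0, and their median log2 fold change was 0.08. Cnih2, a cornichon protein that slows AMPA receptor closing, had 14.0, 15.3 and 12.9 CPM against 19.0, 17.5 and 17.4 CPM (0.35 ± 0.08 SE). Its groups did not overlap. In this list DESeq2 called Cnih2 alone (adjusted p 0.0182), against 2.31% of the genes to which it gave an adjusted p. By edgeR Cnih2 had an adjusted p of 0.112. It was the 1 gene with an edgeR raw p below 0.05, against 10.5% of all tested genes in either direction. Cacng5, a TARP-family gene, followed with 0.31 (edgeR adjusted p 0.531), and with 0.17 without CreER-positive replicate 2.

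Among 12 GABA receptor partners and chloride transporters edgeR called 0. DESeq2 called 1 (Kctd8), against 2.31% of the genes to which it gave an adjusted p. In this list 3 genes had an edgeR raw p below 0.05, all with positive estimates, against 10.5% of all tested genes in either direction. The median log2 fold change was 0.10. Kctd8, an auxiliary subunit of the GABA-B receptor, had 57.3, 57.5 and 57.5 CPM in the control mice, against 73.8, 66.9 and 64.2 CPM with CreER (0.25 ± 0.06 SE). Its adjusted p was 0.128 by edgeR, 0.0247 by edgeR without CreER-positive replicate 3, and 0.0346 by DESeq2. Kctd16, from the same family, had 71.0, 71.2 and 64.3 CPM against 98.2, 70.8 and 92.8 CPM (0.34, edgeR adjusted p 0.273). Without CreER-positive replicate 2, the mouse of that group that lay within the controls, Kctd16 was called (0.47, edgeR adjusted p 0.0170). Over the fits without 1 library its estimate ran from 0.25 to 0.47. The chloride importer gene Slc12a2 had 301 ± 10.9 and 288 ± 17.5 CPM (-0.07, 95% interval -0.22 to 0.09). The CPM of the exporter gene Slc12a5 averaged 1.19 in controls and was 1.15, 2.72 and 1.30 with CreER, and its estimate was 0.51 (interval -0.25 to 1.27) with CreER-positive replicate 2 and 0.009 without it.

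Of 7 genes for GABA supply and clearance 5 were tested and neither edgeR nor DESeq2 called any, and 0 had a raw p below 0.05. The smallest p values were those of the transporter gene Slc6a11 (0.46, edgeR adjusted p 0.520) and of Abat, which breaks GABA down (-0.11, adjusted p 0.654). Without CreER-positive replicate 2 the estimate of Slc6a11 was 0.16. Grid1, an orphan delta receptor gene related to the glutamate receptors, had 8.86, 11.2 and 11.3 CPM against 14.2, 11.6 and 13.5 CPM. Its groups did not overlap, and the estimate of 0.32 was not called by edgeR (adjusted p 0.330) or DESeq2 (0.186).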

How the data were processed

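RNA-seq of 6 ganglion libraries was analysed from the authors' deposited tables, which per the file headers give a raw count, another column with the gene's width in bases, and an RPKM value per NCBI gene. Reads were aligned with GSNAP to GRCm38 (mm10), per the submitters' processing notes. No source used here gives the counting tool or strand setting. The deposited RPKM values, per kilobase of that width and scaled by a library total, entered no test. Identifiers were matched to RefSeq GRCm38.p6 (31049 of 36528). Genes were filtered with filterByExpr defaults, scaled with TMM and tested with edgeR 4.0.16 (quasi-likelihood, R 4.3.3) over 22043 genes, with Benjamini-Hochberg adjustment at 0.05. The step was tested on simulated data. Alternatives were other scalings and filters, DESeq2 1.42.0, limma-voom (limma 3.58.1) and leaving out libraries. The receptor genes and lists were chosen with earlier results of these data known. Named were all 33 receptor genes and, per list, called genes and the 2 smallest p values, except 1 gene that is not reported here. Slc17a6, Slc17a7, Dlg4, Slc12a2, Slc12a5, Gphn, Gad2, Slc32a1, Slc6a5, Mobp, Pax2, Aqp4, P2rx3, Lpar3, Mrgprb4, Calcb, Gal and Cdh9 were chosen after their values were seen. Figures were drawn with matplotlib 3.10.9.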

Additional observations from a re-analysis of the deposited data

How the results depend on the processing

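The 31 tested receptor genes were refitted under 14 alternatives, and of the 433 estimates 393 kept their direction and side of the threshold. Their count of 1 call became 0 with scaling to pan-neuronal markers, 3 by DESeq2, and 0 without control replicate 2 and CreER-positive replicate 3 together, which was added after seeing the data. Leaving out 1 library gave 0 (control replicate 2 or 3) to 1. The count of 160 over all genes became 254 with no filter and 430 by DESeq2, and ran from 60 without control replicate 2 to 549 without CreER-positive replicate 3, with 69 and 76 without control replicates 1 and 3. The count of 2 for the other signalling genes became 1 with total counts alone, pan-neuronal scaling, limma-voom or without both libraries, 4 by DESeq2, and 1 to 4 without 1 library. The median of the receptor genes was -0.015 to 0.053 without 1 library and 0.036 without both.

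In 9 uncalled receptor genes the sign turned. Grin1 had 0.0027 with DESeq2 size factors, 0.010 with no filter, 0.0026 by DESeq2, 0.0019 by limma-voom and 0.046 without both libraries. Grm3 had 0.00027 with DESeq2 size factors, 0.0079 with no filter, 0.00038 by limma-voom and 0.030 without both. Gabrb2 had 0.0019 with no filter and 0.067 without both, Grin2c 0.11 and Gabbr2 0.16 without both. Without 1 library the ranges were -0.054 to 0.048 for Grin1, -0.13 to 0.081 for Grm3, -0.13 to 0.069 for Gabrb2, -0.20 to 0.080 for Grin2c, -0.12 to 0.13 for Gabbr2, -0.11 to 0.0060 for Gria3, -0.092 to 0.0032 for Grm4, -0.053 to 0.13 for Grm8 and -0.056 to 0.18 for Gabrg3. Among the other signalling genes named, Slc17a6 turned, with -0.084 to 0.014 without 1 library and 0.013 without both. The cause of these changes was not tested, beyond the fewer samples or genes in a fit. No paired analysis was possible because the replicate numbers follow sample order and the labels tie no number to a litter, batch or day. Depth limits Grin2a, Grin2b and Grm2, at 1 to 15 counts per library.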

Other observations

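Some transcripts of inhibitory neurons, which ganglia are not known for, were highest in 1 library. Slc32a1, the vesicular GABA transporter, had 0, 0 and 0 counts in the controls and 2, 28 and 1 in CreER-positive replicates 1, 2 and 3. Gad2, a GABA-synthesising enzyme gene, had 6, 5 and 8 counts against 8, 32 and 7. The same library had the highest CPM of Slc12a5 (2.72, against 0.836, 1.25 and 1.503 in the controls), Slc6a11 (6.46, against 2.85 to 4.08) and Slc1a2 (17.1, against 8.88 to 11.2). It also had the highest summed level of 8 oligodendrocyte and astrocyte markers of the spinal cord, at 38.3 CPM. That sum was 27.2 and 31.2 CPM in CreER-positive replicates 1 and 3 and 23.6 to 27.0 CPM in the controls, so the groups did not overlap.

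Gphn, the gephyrin gene whose protein anchors GABA-A receptors at synapses, stood apart in 2 of the CreER-positive libraries. It had 67.2, 67.2 and 66.8 CPM in the controls and 210, 66.6 and 115 CPM in CreER-positive replicates 1, 2 and 3. The log2 fold change of 0.96 ± 0.32 (SE) was not called by edgeR (adjusted p 0.299), DESeq2 (0.454) or limma-voom (0.415). Gphn was called by edgeR without CreER-positive replicate 2, the mouse of that group at the control level (1.28, adjusted p 0.0237). Over the fits without 1 library its estimate ran from 0.44 to 1.28.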
